A study of Mus musculus with 2 samples.

Results

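The genes described here are 8 long noncoding RNA genes: Neat1 and Malat1, whose transcripts stay in the nucleus, the small nucleolar RNA host genes Snhg1, Snhg3, Snhg8 and Gas5, and the imprinted genes Meg3 and H19. They were chosen by name, with the signals of these 2 arrays known, and each was found through every non-control probe whose RefSeq accession maps to it. That gave 13 of 41174 probes, reading 5 of the 8 genes. Snhg1, Gas5 and H19 had no probe that could be named in this way and are not analysed here. The whole data set held 18206 genes with a named probe, of which 12396 were measured on both arrays, and 4 of the genes described here were among them.

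Gene expression was compared between epidermis of the Nfkbiz flox/flox genotype (control) and epidermis of the Nfkbiz flox/flox genotype that also carries K5-cre (knockout), on 1 one-colour Agilent array each. Both genotypes carry the floxed allele, so the groups differ by the transgene, whose keratin 5 promoter is active in basal keratinocytes and not in every cell of the epidermis. The floxed gene encodes IκBζ, a nuclear partner of NF-κB. The tissue was taken in the steady state, and the age, sex and number of mice behind each RNA sample are not given in the sources used here. With 1 array per genotype there is no replicate check, so nothing was tested. Each ± gives the standard error that the scanner software's error model allows for the log2 difference, without the spread between mice.

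Neat1 RNA is the scaffold of paraspeckles, nuclear bodies that hold RNA-binding proteins, and Malat1 RNA gathers in nuclear speckles, where splicing factors are stored. Small nucleolar RNAs (snoRNAs) guide the chemical modification and cleavage of ribosomal RNA, and most are cut from introns of host genes. Some hosts encode ribosomal or translation proteins, while others, named Snhg, make spliced RNAs that are not known mainly for a protein product, many of which are degraded in the cytoplasm by nonsense-mediated decay. In the RefSeq gene table of assembly GRCm38.p6, 8 snoRNA genes lie inside Snhg1, 8 inside Gas5, 2 inside Snhg3 (Snora73a and Snora73b, of the U17 family) and 1 inside Snhg8 (Snora24). Meg3 and H19 are expressed from the maternal chromosome, mostly before birth.

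The probes' own sequences and positions are not used here, so the promoters of the nuclear RNA and the pair of host genes that the values turn on are shown instead, to let their start regions be compared. RefSeq promoters of GRCm38.p6 were matched for 6 of the 8 genes. Each line holds 300 bases, from 250 before the annotated start to 50 after the start. Capitals mark matches, on either strand, to 4 motifs: the NF-κB type motif GGNNTTTCC, the TATA motif TATAAA, the E-box CACGTG and the CREB half-site TGACG. Malat1 lies at chr19:5802623-5802922, Snhg3 at chr4:132353637-132353936 and Snhg8 at chr3:123508287-123508586, all on the minus strand.
Malat1: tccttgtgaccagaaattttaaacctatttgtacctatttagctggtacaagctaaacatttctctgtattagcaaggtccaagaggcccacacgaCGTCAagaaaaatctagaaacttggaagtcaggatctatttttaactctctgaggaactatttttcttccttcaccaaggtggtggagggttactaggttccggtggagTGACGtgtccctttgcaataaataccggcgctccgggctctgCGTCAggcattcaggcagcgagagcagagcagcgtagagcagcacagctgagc
Snhg3: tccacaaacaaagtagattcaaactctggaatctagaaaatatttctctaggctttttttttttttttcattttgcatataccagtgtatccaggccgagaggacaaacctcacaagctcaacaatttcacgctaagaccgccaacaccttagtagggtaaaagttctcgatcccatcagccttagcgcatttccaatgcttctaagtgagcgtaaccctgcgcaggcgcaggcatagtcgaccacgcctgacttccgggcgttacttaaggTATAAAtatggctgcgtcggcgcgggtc
Snhg8: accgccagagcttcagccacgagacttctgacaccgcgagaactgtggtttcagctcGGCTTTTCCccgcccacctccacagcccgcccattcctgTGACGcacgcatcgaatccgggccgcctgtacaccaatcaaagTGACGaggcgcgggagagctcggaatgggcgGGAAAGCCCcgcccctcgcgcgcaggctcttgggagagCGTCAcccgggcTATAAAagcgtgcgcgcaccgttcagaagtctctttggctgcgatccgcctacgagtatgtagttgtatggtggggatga

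Malat1 had 3 TGACG matches, beginning at positions -154, -45 and -3 from the annotated start, and Snhg8 had 3, at -154, -111 and -42, while the Snhg3 window held none. TGACG was present in 20.8% of 32851 promoters of the same length. TATAAA, present in 13.6% of promoters, began at -30 in Snhg8 and at 23, inside the annotated transcript, in Snhg3. GGNNTTTCC, present in 5.82% of promoters, began at -193 and -80 in Snhg8, and these letters were not in the Malat1 or Snhg3 windows. CACGTG (7.15% of promoters) was in none of these 3 windows. Such matches describe letters and not binding.

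On the knockout array 3 of the 4 genes measured on both arrays, Neat1, Snhg3 and Malat1, were at least 2-fold lower, and Snhg8 was lower by less than 2-fold. Of all 12396 measured genes, 4.47% were 2-fold or more lower and 2.98% 2-fold or more higher (7.45% in either direction), and 1.52% were 3-fold or more lower. In numbers these were 554 lower and 370 higher genes, a split that turned to 283 lower and 1009 higher under median scaling, 351 and 712 with no scaling, and 458 and 459 under quantile normalization. Since the genes were chosen with these values known, nothing is read from that comparison. Their median difference was -2.29, beside -0.05 over all genes. The differences are of log2 signals scaled to each array's 75th percentile over non-control probes (194 on the control and 227 on the knockout array), knockout minus control. In whole tissue fewer cells of a type cannot be told apart from less RNA per cell.

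Neat1 had the brightest of these probes. Its single probe gave a processed signal of 25200 in the control and 2830 in the knockout. The scaled difference was -3.38 ± 0.20, or 10.4-fold lower (rank 9 from the lowest of 12396 genes). RefSeq lists 2 accessions for Neat1, and the probe carries 1 of them. These data do not say whether it read the short transcript, the long one or both. The signals of the 20 measured spots within 3 rows and 3 columns of this probe had a median difference of -0.03, with none at least 2-fold lower and 2 at least 2-fold higher.

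Malat1 was read by 4 probes, and each was lower on the knockout array. The brightest gave 1250 in the control and 589 in the knockout (-1.31 ± 0.20, 2.48-fold lower). The second gave 464 and 245, and the third 165 and 86.2. The dimmest gave 129 and 56.0 and had the largest difference, -1.43 ± 0.23. Probes of different sequence bind with different strength, so their levels are not compared with each other. Their differences can be compared, and they lay between -1.43 and -1.15, with a mean of -1.26 and an SD of 0.13 over the 4 probes. Of 155 genes with at least 4 measured probes, 16.1% had a smaller SD, and the median SD was 0.30. The probes share the same 2 RNA samples and are not replicates. Malat1 passed 2-fold by a small margin and was at -0.96 under median scaling. Its rank was 307 from the lowest.

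Neat1 and Malat1 are neighbours on chromosome 19, and the 1 gene listed between them, Mascrna, overlaps Malat1. Frmd8, which lies next to Neat1 on its other side, had signals of 3280 and 3110 (-0.30 ± 0.20, and 0.04 under median scaling). It was not 2-fold apart under any scaling tried.

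**Figure D1:**
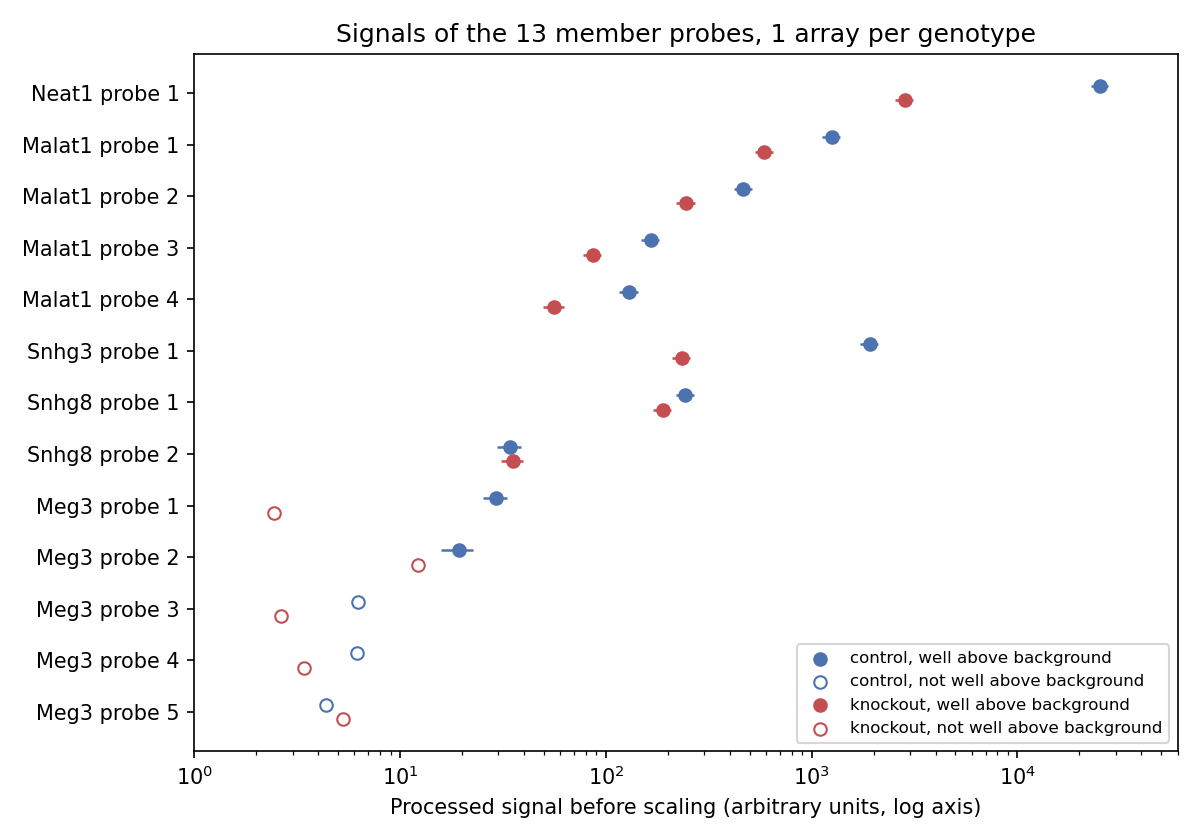
Processed signal of each probe on the control array (blue) and the knockout array (red), 1 array per genotype, on a log axis before scaling; bars are the scanner software's error and open points, drawn without bars, were not well above background. Neat1 goes from 25200 to 2830 and Snhg3 from 1920 to 234, all 4 Malat1 probes are lower on the knockout array, and all 5 Meg3 probes are dim.

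Among the host genes, Snhg3 was far lower on the knockout array and Snhg8 only slightly lower. The single Snhg3 probe gave 1920 in the control and 234 in the knockout (-3.26 ± 0.20, 9.60-fold lower, rank 11 of 12396). Its 25 measured neighbouring spots had a median difference of -0.16, and 2 of them were at least 2-fold lower. Rcc1, which encodes the exchange factor of the GTPase Ran and lies next to Snhg3, had 297 and 353 (0.02 ± 0.20, and 0.37 under median scaling). On the other side, Phactr4 had 3160 and 2770 (-0.42 ± 0.20, or -0.07 under median scaling). The RefSeq table shows no overlap of Snhg3 with either. Neither of these neighbours was 2-fold apart.

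Snhg8 was read by 2 probes with small differences. The brighter gave 243 and 189 (-0.59 ± 0.21), and its 27 measured neighbouring spots had a median of -0.28. The dimmer gave 34.2 and 35.3 (-0.18 ± 0.26), a scaled difference within its error. Prss12, which encodes a serine protease and lies beside Snhg8, was lower, with 819 and 429 (-1.16 ± 0.20, -0.81 under median scaling). The difference between Snhg3 and Snhg8 has no replicate behind it and was not tested.

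Other noncoding snoRNA hosts were also lower on the knockout array. Of 17 further noncoding hosts on a list, 4 had a named probe, and all 4 were at least 2-fold lower, with a median of -1.57. Over all measured genes the share was 4.47%. The list was chosen with earlier results of these data known, so nothing is read from that count. Snhg20 had 996 and 193 (-2.59 ± 0.21), and Snhg17 had 929 and 379 (-1.52 ± 0.20). Snhg16, which the naming rule did not reach and which was added after its values were seen, had 2370 and 1240 (-1.16 ± 0.20, -0.81 under median scaling). The dim Snhg7 had 56.8 and 21.6 (-1.62 ± 0.28), and it was at -0.53 under normexp background correction. Each of the 4 was read by 1 probe. Under median scaling, normexp and no scaling, 3 of the 4 were at least 2-fold lower.

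Hosts that encode proteins lay near the median gene. Of 23 measured protein-coding hosts, most of them ribosomal protein and translation factor genes, none was at least 2-fold lower and 2 were at least 2-fold higher. Their median was -0.11, which turned to 0.24 under median scaling and was above 0 also under cyclic loess, normexp and no scaling. Rpl3, a ribosomal protein gene, had 6230 and 23500 (1.69 ± 0.20), and the chaperone gene Hspa8 was at 1.18. The lowest of the 23 was at -0.22. No test compared these hosts with the noncoding ones.

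The snoRNAs themselves were hardly covered. No snoRNA inside the genes described here had a named probe, and of 7 small RNA genes with one, 5 were measured on both arrays, with a median of -0.87 and 2 at least 2-fold lower. Of the small RNA genes, the telomerase RNA gene Terc had 78.6 and 26.3 (-1.81 ± 0.26, -0.69 under normexp). Chosen after their values were seen, Snora3 had 84.5 and 17.9 (-2.47 ± 0.29, -1.02 under normexp), while its host gene Rpl27a was at -0.06, and Snord33, inside Rpl13a, had 78.9 and 134 (0.54 ± 0.21). Rmrp, the RNA of the mitochondrial RNA processing RNase, had 419 and 269 (-0.87 ± 0.21). The sources used here do not say whether such a probe reads the mature small RNA or the precursor of its host.

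**Figure D2:**
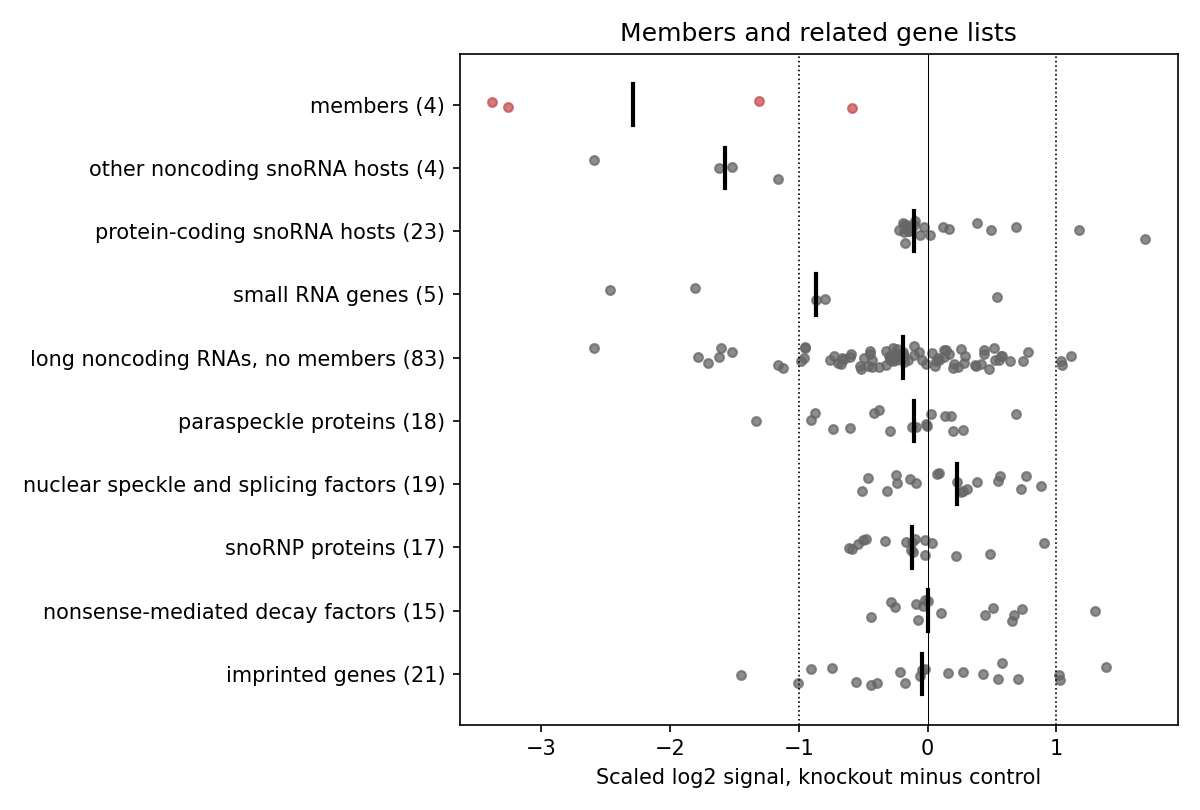
Each point is a gene measured on both arrays, placed by its scaled log2 difference, knockout minus control, with the list and its number of genes on the vertical axis; black bars are list medians, dotted lines mark 2-fold, and the vertical scatter within a row is only to separate points. The 4 members (median -2.29) and the 4 other noncoding snoRNA hosts (median -1.57) lie to the left of the 23 protein-coding hosts (median -0.11).

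Meg3 was at the limit of detection. On the control array 2 of its 5 probes were well above background, at 29.1 and 19.3, and on the knockout array none was, with 2.45 and 12.2 at the same probes. The lowest signal that counted as well above background was 12.7 in the control and 12.1 in the knockout. Set against that lowest knockout signal, the first probe was at least 2.81-fold lower, a value for that probe and not for the gene. The second probe, which represents the gene, read 12.2 on the knockout array and still did not count as well above background. The lowest counted signal is therefore not a strict limit. The second probe's own signals gave 1.85-fold lower (-0.89 ± 0.42), which is not a bound. The first probe had 24 measured neighbouring spots, of which 4 were at least 2-fold lower and none at least 2-fold higher. The other 3 probes read between 4.34 and 6.24 on the control array and between 2.64 and 5.26 on the knockout array. These signals are not ranked, because neither array measured them.

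Genes that share the imprinted domains of Meg3 and H19 gave little signal. Dlk1 and Rian, of the Meg3 domain, had 3.07 and 3.25, and 2.81 and 2.56, none well above background. Igf2, of the H19 domain, was not well above background on either array. Of 21 measured genes on a list of imprinted genes, 2 were at least 2-fold lower and 3 at least 2-fold higher, with a median of -0.04 that turned above 0 under median scaling, quantile normalization, cyclic loess, normexp and no scaling. Under normexp none was 2-fold lower and 1, Phlda2, was 2-fold higher. Sgce, which encodes a sarcoglycan, was at -1.45 ± 0.24 (-0.58 under normexp), Phlda2 at 1.38 ± 0.21, the cell cycle inhibitor gene Cdkn1c at 1.03 ± 0.23 (0.60) and the amino acid transporter gene Slc38a4 at 1.02 ± 0.23 (0.55). The other Slc38a4 probe was at 0.30, and with the mean over probes 2 genes of the list were at least 2-fold higher. Measured genes beside Snhg1, Gas5 and H19 (Slc3a2, Wdr74, Serpinc1, Mrpl23 and Ascl2) ranged from -0.41 for Wdr74 to 0.58 for Ascl2. Those beside Meg3 were Wdr25 at 0.15 and Ppp2r5c at 0.41, whose 3 probes spread down to -0.35.

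Proteins of the bodies that Neat1 and Malat1 RNA belong to were near the median gene. All 18 listed paraspeckle protein genes were measured, with 1 at least 2-fold lower and a median of -0.10, which turned to 0.24 under median scaling and 0.12 with no scaling. Sfpq, Nono and Pspc1, core paraspeckle proteins, were at 0.69, 0.03 and 0.20. Matr3, a nuclear matrix RNA-binding protein gene, was the one past 2-fold, with 1140 and 531 (-1.33 ± 0.20, -0.98 under median scaling). Rbm12, Taf15 and Cpsf6, also RNA-binding protein genes, were at -0.90, -0.87 and -0.74, though the 3 Cpsf6 probes spread up to 0.20. Nuclear speckle and splicing factor genes had a median of 0.23, above 0 under every scaling tried. None of the 19 measured was 2-fold apart, while 3 were at least 2-fold higher under median scaling, 1 with no scaling and 1 after subtracting the local median. The splicing factor genes Srsf6, Srsf2 and Srsf3 were at 0.88, 0.77 (0.27 under normexp) and 0.73, and Pnn, a speckle protein gene, at 0.56.

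Genes for snoRNA-binding proteins and their assembly, and for nonsense-mediated decay, also lay near the median gene. None of 17 measured genes for snoRNA-binding proteins was 2-fold apart in the main setting. Under median scaling, with no scaling and after subtracting the local median, 1 was at least 2-fold higher. The median of the 17 was -0.12 and turned to 0.22 under median scaling and 0.10 with no scaling. Gar1, a core protein of H/ACA snoRNPs, the class that Snora73a and Snora73b belong to, was at 0.91 ± 0.20 (1.25 under median scaling). The cap methyltransferase gene Tgs1 was at -0.61, the H/ACA assembly factor gene Shq1 at -0.59 and the H/ACA core protein gene Nop10 at -0.54. Of 15 measured nonsense-mediated decay factor genes, 1 was at least 2-fold higher and none lower. Their median was 0.00. Under median scaling 4 were at least 2-fold higher and the median was 0.35. The gene past 2-fold in the main setting was the endonuclease gene Smg6, with 169 and 487 (1.30 ± 0.21), though its 4 probes spread down to -0.21. Smg5, whose other probe was at -0.38, Upf3b and Smg9 were at 0.73, 0.67 and 0.66.

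Long noncoding RNA genes as an annotated class gave a wider background. Of 87 measured, 11 (12.6%) were at least 2-fold lower and 3 (3.45%) at least 2-fold higher. Without the genes described here, 8 of 83 (9.64%) were lower, and 4 of these 8 were the Snhg genes above. Under normexp 7 of the 87 were lower and none higher, and 4 of the 83 were lower and none higher. The median of the 83 was -0.19, and it turned above 0 under median scaling, quantile normalization, cyclic loess and no scaling. On a list of 47 other noncoding RNAs, 13 were measured. Mir100hg, a microRNA host, had 93.5 and 35.9 (-1.61 ± 0.25, -0.64 under normexp), Firre, an RNA of nuclear architecture, was at -0.99, and Dleu2 was at 1.04 (0.59 under normexp). Tug1 and Norad, chosen after their values were seen, were at 0.09 and -0.11, values that turn sign or move with the scaling.

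**Figure D3:**
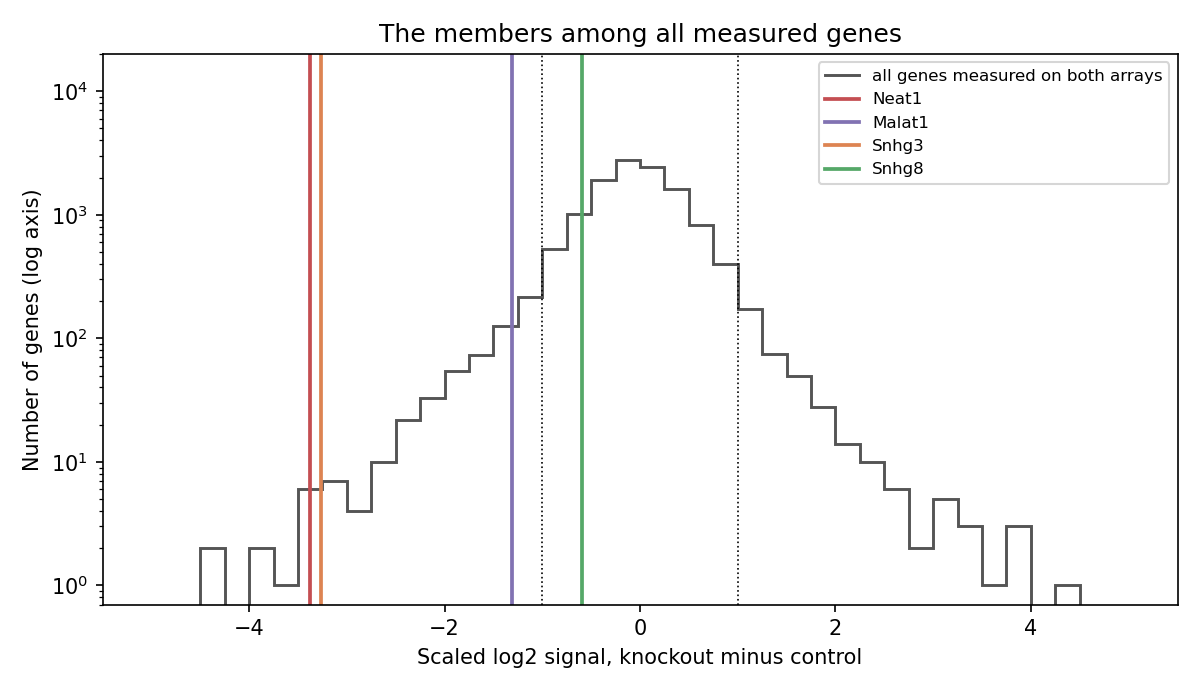
The line gives the number of genes, on a log axis, in bins of the scaled log2 difference between the knockout and control arrays, for all genes measured on both; coloured verticals mark the 4 genes described here and dotted verticals mark 2-fold. Neat1 (-3.38) and Snhg3 (-3.26) fall in the far lower tail, Malat1 (-1.31) just past 2-fold and Snhg8 (-0.59) inside it.

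The genes whose pair of signals lay nearest to each of the 3 lower genes were found by the distance between scaled log2 signals over the 2 arrays. Genes with only a clone, predicted-gene or locus name were left out of this search. Nearest to Neat1 were Plet1, a marker of the upper hair follicle, with 26300 and 3520 (distance 0.32), and the stress keratin gene Krt16, with 24300 and 2090 (0.44). For Malat1 they were the transcription factor gene Klf3, with 1280 and 553 (0.10), and the mitochondrial import gene Tomm22, with 1340 and 620 (0.12). For Snhg3 none of the genes searched lay as near. The nearest of them were Serinc2, with 1550 and 357 (0.68), and Tmc7, with 1190 and 249 (0.70). With 2 arrays and unlike probe strengths, this names similar readings only.

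Marker genes of other cell types were lower for some types and higher for others on the knockout array. Of 12 skeletal muscle markers, 8 were measured on both arrays and 6 of them were at least 2-fold lower, their summed signal being 1583 on the control and 556 on the knockout array. Ckm and Myh4 were measured on the control array alone, and Pvalb and Actn3 on neither. All 4 measured red blood cell markers of 8 listed were at least 2-fold lower, with sums of 18354 and 2133, and so were all 3 measured melanocyte markers of 7, with sums of 1727 and 466. These counts were lower under other settings: 3 of 4 red blood cell markers under median, quantile, cyclic loess, normexp and no scaling, 4 of 8 muscle and 2 of 3 melanocyte markers under normexp. Other lists had medians above 0. For 7 Langerhans cell markers it was 0.52, with Cd207 at 1.65 and 1 below 0, Epcam at -0.38. For 6 T-cell markers it was 0.49, with 2 at least 2-fold higher (none under normexp) and 1 below 0, Thy1 at -0.27. For 3 neutrophil and macrophage markers it was 0.47, with 1 higher, S100a8 at 1.21 (none under normexp), and S100a9 at -0.45. For 4 adipocyte markers it was 0.40. Of 3 measured endothelial markers 1, Vwf, was at least 2-fold lower. The Vwf probe lay near a non-uniform spot, and none of the 2 markers left without such probes was 2-fold lower. Emcn was measured on the control array alone and Tek on the knockout array alone. Keratinocyte markers were bright on both arrays, as the tissue label says, with 8 of 9 measured, sums of 301770 and 318780 and none 2-fold apart. Dermal fibroblast markers had sums of 2634 and 2644 over 7 of 11, with a median scaled difference of -0.32 (0.03 under median scaling). All these sums are of signals before scaling. After scaling, the knockout sum over the control sum was 0.90 for keratinocyte and 0.86 for fibroblast markers, beside 0.94 over all genes. The part of these cell types in the signals of Neat1, Malat1, Snhg3 or Meg3 was not tested. Nfkbiz itself gave 3100 and 1760 (-1.04 ± 0.20, -0.70 under median scaling), by a probe whose place relative to the deleted part the sources used here do not state.

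The order of the differences was Neat1, Snhg3, Malat1 and Snhg8 in each of the 12 alternatives other than the fold thresholds. Most of these had little room to change it. Median scaling and no scaling move all genes alike, and the authors' table held nearly the same differences. The background filters and leaving out probes near non-uniform spots returned the main values. Other probe rules could not move Neat1 or Snhg3, each read by a single probe. Nothing is concluded from the order. Neat1 lay between -3.38 and -3.03 and Snhg3 between -3.27 and -2.86 over the scalings and background correction, and their order lies within their errors. Malat1 lay between -1.32 and -0.96 and Snhg8 between -0.60 and -0.24 over the same settings.

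**Figure D4:**
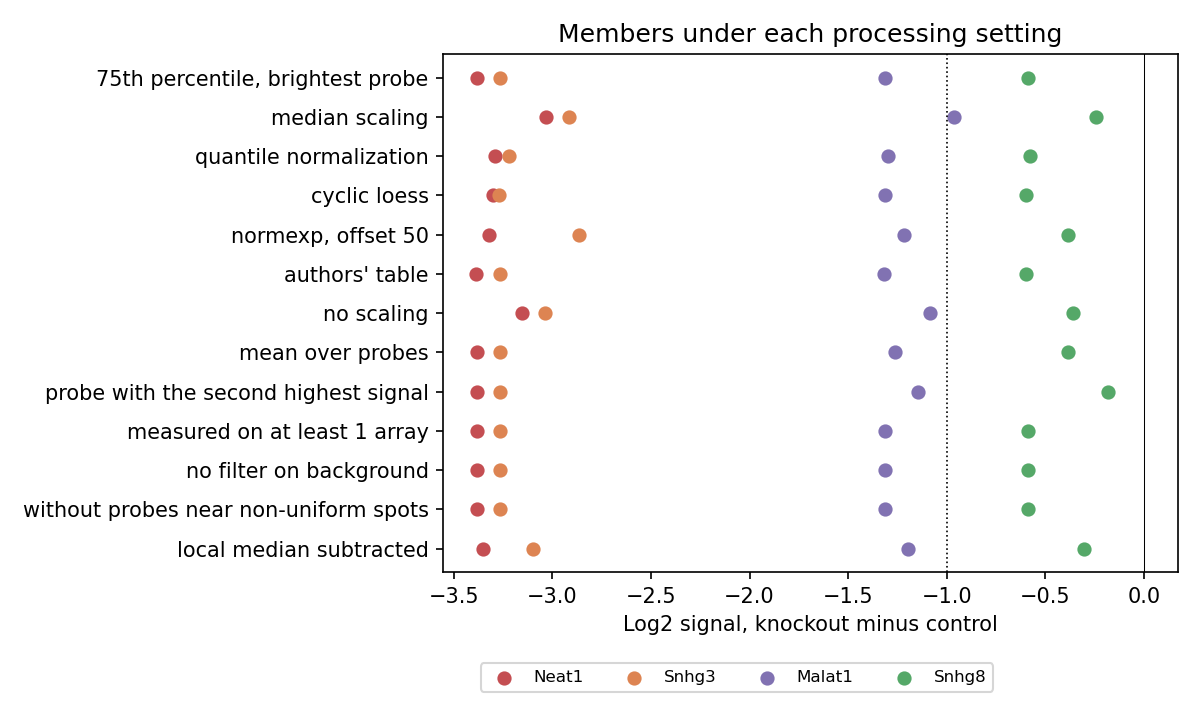
Log2 difference, knockout minus control, of each of the 4 measured genes under the main setting (top row) and each alternative other than the fold thresholds. The dotted line marks 2-fold lower and the solid line no difference. Rows for the background filters and for leaving out probes near non-uniform spots repeat the main values. Malat1 lies right of the 2-fold line under median scaling only (-0.96), and Neat1 and Snhg3 stay left of it throughout.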

How the data were processed

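RNA of peeled epidermis was labelled with Cy3 and hybridised to 2 Agilent arrays, per the labels' protocols. Per the file headers, Agilent Feature Extraction 10.7.3.1 read the spots of a design annotated on mm9, and both arrays came from 1 slide. The deposited intensity of each spot is linear, with background subtracted and spatial trend removed inside each array. A log2 table deposited by the authors, centred per probe, gave differences with a Pearson r of 1.00 to these across 21604 probes and a median offset of -0.00; the medians of its control and knockout columns were 0.14 and -0.14. Its levels stay unknown, while its scale and direction follow from that match.

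Spots marked as outliers and control spots were left out, spots of a probe averaged, and log2 signals scaled by each array's 75th percentile over non-control probes. On the control array 56.2% of probes were well above background, on the knockout array 56.3%, none was saturated, and the number of arrays limits the precision. A probe counted as measured if well above background and unsaturated. Names came from the RefSeq accession (26690 of 41174) through the table of GRCm38.p6, and the probe with the highest mean signal stood for a gene. For a bound, the dim array's value is its own signal or, if higher, the lowest one well above background. Genes were called at 2-fold.

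Named genes were the 8 members, their nearest measured neighbours, the 2 nearest genes in signal, Nfkbiz, and up to 4 genes per pathway list with the largest difference. That rule did not reach Hspa8, Rmrp, Sfpq, Nono, Pspc1, Dlk1, Rian, Igf2, Rpl27a or the cell type markers, which are named as well. A few items are not reported here. The members and lists were chosen with earlier results of these data known. Alternatives, 14 in all, were other scalings (median, quantile, cyclic loess, none), normexp with an offset of 50, the authors' table, other probe rules, fold thresholds of 1.5 and 3, background filters and the place on the array. Having no scaling was added after seeing the data. Python 3.11.15, numpy 2.4.6, pandas 2.3.3, matplotlib 3.10.9, R 4.3.3 and limma 3.58.1 were used.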

Additional observations from a re-analysis of the deposited data

How the results depend on the processing

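No paired analysis was possible because there is 1 array per genotype. The count of 3 of 4 genes at least 2-fold lower was 2 under median scaling and at 3-fold and 4 at 1.5-fold, and no member was higher under any of the 14 alternatives. Median scaling moved every difference by 0.35, to -3.03 for Neat1, -2.92 for Snhg3, -0.96 for Malat1 and -0.24 for Snhg8, with a member median of -1.94. No scaling gave -3.15, -3.04, -1.09, -0.36 and a median of -2.06. Normexp gave -2.86 for Snhg3 and a median of -2.04. Snhg8 was at -0.18 by its dimmer probe and -0.31 after subtracting the median of its neighbouring spots. With Meg3 included, when 1 array or no filter sufficed, the median was -1.31 in both cases.

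Over all genes, 554 were lower and 370 higher. Median scaling made these 283 lower against 1009 higher, quantile normalization 458 against 459, cyclic loess 481 against 421, normexp 233 against 174, and no scaling 351 against 712. A threshold of 1.5-fold gave 1663 against 1240, one of 3-fold 189 against 103, genes measured on 1 array or both 832 against 560, and an open filter 1442 against 662. The cause of these shifts was not tested, except that median scaling and no scaling move all genes alike. Among 182 further medians and genes, 1600 alternative values moved by less than 0.20, 561 by more, and 1 called gene changed sign: Cd247, a T-cell marker, was at -0.33 by its second probe. Dim signals limit Meg3, Snhg7 and Terc.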

Other observations

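Other lists set beside these genes concern p53 targets and regulators of mTOR and of growth arrest, the state that gave the host gene Gas5 its name. Among 19 measured p53 targets 3 were 2-fold or more lower, and 1 was higher. Their median was -0.32, which turned to 0.02 under median scaling. Btg2, an antiproliferative gene, had signals of 15700 on the control and 3070 on the knockout array (-2.58 ± 0.20), the death receptor gene Tnfrsf10b was at -1.85 ± 0.24 (-0.90 under normexp) and the BH3-only gene Pmaip1 at -1.51 ± 0.20. Bbc3, another BH3-only gene, was higher, with 785 and 4700 (2.36 ± 0.20).

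Among 20 mTOR and growth arrest genes 2 were 2-fold or more lower, and none was higher. Their median was -0.10, which turned to 0.25 under median scaling and 0.13 with no scaling. Under median scaling 1 was lower and 2 were higher, Akt1s1 at 1.09 among them. Fkbp5, a glucocorticoid-induced co-chaperone, had 378 and 41.8 (-3.40 ± 0.22, -2.19 under normexp), and Sesn3, a sestrin gene, had 324 and 166 (-1.19 ± 0.21, -0.80 under normexp). Deptor, an mTOR inhibitor gene, was at -0.91 and Akt1s1, which encodes another, at 0.74. With 1 array per genotype none of these values was tested.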
